A study of Mus musculus with 8 samples.

Results

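The genes named Mrpl and Mrps encode the proteins of the mitochondrial ribosome, and their mRNA levels were compared here across 3 stages of thymic natural killer T (NKT) cell maturation in wild-type (WT) and Ezh2-knockout (Ezh2-KO) mice. Members were chosen by gene symbol alone, as every gene whose symbol is Mrpl or Mrps followed by a digit, with pseudogenes left out. This gave 78 of the 27179 genes in the counts table, 49 with an Mrpl and 29 with an Mrps symbol. By the place of the protein in the ribosome, 51 belong to the large subunit, 26 to the small subunit and 1 (Mrps36) to neither, since its product is a subunit of the 2-oxoglutarate dehydrogenase complex. Mrps18a and Mrps30 carry a small-subunit symbol but their products sit in the large subunit, and they are counted there.

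All mice were on the C57BL/6 background, and all 8 RNA libraries came from thymic NKT cells, T cells with a semi-invariant receptor that recognises lipids presented by CD1d. CD44- NK1.1- cells are the earliest of the 3 subsets, CD44+ NK1.1- cells follow, and CD44+ NK1.1+ cells are the most mature. Each genotype gave 2 biological replicates of CD44+ NK1.1- cells and 1 library of each of the other subsets. The labels do not number the replicates, so the numbers used here follow library order and pair nothing across genotypes. Ezh2 is the methyltransferase of Polycomb repressive complex 2, which places the repressive mark H3K27me3. Not given in the sources used here are the driver of the deletion, the cells that carry it, the deleted exons, and the age and sex of the mice.

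Mitochondrial ribosomes translate the few proteins that mitochondrial DNA encodes, all of them core subunits of the respiratory chain and ATP synthase. Their RNAs come from mitochondrial DNA, whereas all their proteins are encoded in the nucleus, made in the cytosol and imported. Some of these proteins descend from bacterial ribosomal proteins and others were added in the mitochondrial lineage. T cells are known to raise mitochondrial biogenesis and translation when they are activated and divide.

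The promoters of the genes with the largest changes are shown first, to set the letters at their start sites beside the changes. RefSeq promoter windows on GRCm38.p6, from 250 bases before to 50 after a start, were found for 69 of the 78 members, and Mrpl54 and Mrps28 were among those without one. The following 4 windows are read 5′ to 3′ on the strand of the gene. Those of Mrpl52 (chr14:54426659-54426958, plus strand) and Mrps18b (chr17:35916391-35916690, minus strand) come from members that were lower in the most mature cells. That of Mrpl58 (chr11:115403502-115403801, plus strand) comes from a member called higher there against the earliest subset, but not against CD44+ NK1.1- cells. That of Mrps6 (chr16:92058086-92058385, plus strand) comes from a member that was lower, but this window holds none of the marked letters. Capitals mark the ETS core CCGGAAG as bound by GABPA, the NRF1 core GCGCATG and the YY1 core AAGATGG, each on either strand.
Mrpl52: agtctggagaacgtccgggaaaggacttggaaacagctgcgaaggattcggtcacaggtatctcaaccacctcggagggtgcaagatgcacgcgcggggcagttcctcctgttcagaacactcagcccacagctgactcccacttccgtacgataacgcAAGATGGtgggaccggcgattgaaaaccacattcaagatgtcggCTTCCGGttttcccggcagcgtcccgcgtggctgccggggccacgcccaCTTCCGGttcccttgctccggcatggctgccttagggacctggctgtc
Mrps18b: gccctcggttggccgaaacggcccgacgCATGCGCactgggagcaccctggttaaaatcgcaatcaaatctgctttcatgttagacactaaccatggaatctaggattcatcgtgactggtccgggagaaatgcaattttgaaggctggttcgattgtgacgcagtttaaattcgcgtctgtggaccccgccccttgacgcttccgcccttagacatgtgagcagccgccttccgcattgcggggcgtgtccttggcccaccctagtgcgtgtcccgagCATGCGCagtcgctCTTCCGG
Mrpl58: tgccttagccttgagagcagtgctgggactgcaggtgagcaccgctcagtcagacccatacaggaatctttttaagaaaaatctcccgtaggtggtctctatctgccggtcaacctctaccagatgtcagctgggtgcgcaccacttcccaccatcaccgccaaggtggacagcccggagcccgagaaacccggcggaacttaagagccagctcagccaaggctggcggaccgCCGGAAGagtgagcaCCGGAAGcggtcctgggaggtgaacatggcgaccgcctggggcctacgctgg
Mrps6: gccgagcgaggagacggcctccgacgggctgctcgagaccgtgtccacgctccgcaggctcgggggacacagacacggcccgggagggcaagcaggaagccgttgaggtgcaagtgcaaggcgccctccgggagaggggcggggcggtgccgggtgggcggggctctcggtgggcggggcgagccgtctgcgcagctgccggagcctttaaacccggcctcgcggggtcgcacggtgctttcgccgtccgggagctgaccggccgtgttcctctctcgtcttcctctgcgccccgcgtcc

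The Mrpl52 window holds the YY1 core 91 bases before the start and the ETS core on the reverse strand 47 bases before and 2 bases after it. The Mrpl58 window has 2 forward ETS cores, 17 and 2 bases before the start. The Mrps18b window holds 2 reverse NRF1 cores and 1 reverse ETS core. GABPA, NRF1 and YY1 are transcription factors known for binding promoters of nuclear genes for mitochondrial proteins.

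Over all members with a window, the ETS core was the most frequent of the 3 marked strings. It occurred in 26 of 69 members (37.7%), in 2067 of the 10308 tested genes with a window (20.1%) and in 9.93% of all 27025 genes with one. The YY1 core occurred in 13 members (18.8%) and in 8.34% of tested genes, and the NRF1 core in 8 members (11.6%) and 7.88% of tested genes. The TATA box TATAAA was in 5 members (7.25%, against 8.67% of tested genes), and the CCAAT box CCAAT in 27 (39.1%, against 42.9%). The share with an ETS core was close in members that were lower in the most mature cells, 9 of 22, and in the other tested members, 17 of 46. The E-box CACGTG, as bound by MYC and MAX, was in 4 of the 22 (Mrpl2, Mrpl20, Mrpl37 and Mrps18c) and in 0 of the 46. With Mrpl36, which was not tested, it occurred in 5 of 69 members (7.25%), and in 11.7% of tested genes. These are matches of letters, described without a test.

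Library depth was even, from 20308745 to 22995090 counted reads. Ezh2 itself was measured at 113 and 136 CPM (counts scaled to library size) in the WT CD44+ NK1.1- libraries and at 83.3 and 77.9 in the Ezh2-KO ones. WT and Ezh2-KO levels were 109 and 78.4 in CD44- NK1.1- cells, and 57.1 and 40.4 in CD44+ NK1.1+ cells. The Ezh2-KO level was thus lower in each subset, and reads remained. Klrb1c, which encodes NK1.1, was at 1146 and 1447 CPM in the CD44+ NK1.1+ libraries and at 15.4 to 217 in the other 6, and Cd44 was at 17.0 and 17.9 in the CD44- libraries and at 135 to 452 in the others. One library stood apart: in WT CD44+ NK1.1- replicate 1 the 20 immediate early genes summed to 4817 CPM, against 1082 to 2289 in the other 7, and Klrb1c was at 217 CPM against 68.5 in its replicate. Counts of members called, and the changes of the members with the largest ones, are given with and without it. All 7 NKT cell markers summed to 2558 to 5655 CPM. Summed markers were 3.64 to 8.75 CPM for myeloid cells (6 genes), 5.09 to 10.1 for dendritic cells (6), 2.15 to 5.79 for thymic epithelial cells (5), 30.7 to 93.8 for immature thymocytes (7) and 58.0 to 120 for B cells (6). In the B cell list the kinase gene Blk made up most of the sum, at 53.2 to 117 CPM, while Cd79b was at 0.539 to 3.67 and Ms4a1 and Cd79a at or below 0.704. The erythroid sum was 1.03 to 1.68 CPM in the 4 WT libraries and 19.7, 0.540, 21.7 and 59.5 in Ezh2-KO CD44+ NK1.1- replicates 1 and 2, CD44- NK1.1- and CD44+ NK1.1+ cells, the last being the library in which 38 members had their lowest value. Its part in the members' levels was not tested. The 6 NK cell markers summed to 172 CPM in WT and 524 in Ezh2-KO CD44+ NK1.1+ cells, and to 4.32 to 68.0 elsewhere.

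The members were well expressed and varied little. A gene was tested when its counts passed the filter on low counts, which left 13794 genes and 77 members. The counts behind a tested member ranged from 144 for Mrpl22 to 2244 for Mrpl10 in a single library. Per kilobase of counted length (RPKM, mean of the 8 libraries), the tested members had a median level of 33.4, with quartiles of 19.0 and 50.8, against a median of 9.07 over all genes tested. 73 of the 77 lay above that median. The highest member by this measure was Mrpl52 at 153 RPKM ± 37.0 (SD over 8 libraries of all groups), followed by Mrpl33 at 121, Mrpl30 at 107, Mrps21 at 102 and Mrps16 at 97.1. The lowest tested were Mrpl1 at 5.51, Mrps25 at 5.64, Mrps17 at 7.57, Mrpl17 at 7.75 and Mrpl35 at 9.64 RPKM. These levels spanned 27.7-fold. RPKM depends on the length counted, which for Mrpl17 was 6712 bases and for Mrpl52 412 bases.

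Mrpl36 was the member left out by the filter. It encodes a large-subunit protein with a bacterial counterpart, and it had 2 reads in all, 1 each in Ezh2-KO CD44+ NK1.1- replicate 2 and in the Ezh2-KO CD44+ NK1.1+ library. Its annotated exons on GENCODE vM21 overlap Ndufs6 on the other strand, a gene at a mean of 33.3 CPM. The part of this overlap in the low count was not tested.

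Between the highest and the lowest of the 8 libraries the median member differed 1.38-fold, against 1.70-fold for the median gene tested, and 2 members differed more than 2-fold. Members took 0.312% and 0.337% of all counts in the 2 WT CD44+ NK1.1- libraries, 0.338% and 0.360% in the Ezh2-KO ones, 0.322% in WT and 0.348% in Ezh2-KO CD44- NK1.1- cells, and 0.261% in WT and 0.257% in Ezh2-KO CD44+ NK1.1+ cells. Both CD44+ NK1.1+ libraries were below all 6 others. The Ezh2-KO CD44+ NK1.1+ library held the lowest value of 38 of the 77 tested members and the WT one that of 22. The highest value fell in Ezh2-KO CD44+ NK1.1- replicate 2 for 36 members. Replicates also differed in common: the median member was 0.07 higher on the log2 scale in replicate 2 than in replicate 1 of the WT CD44+ NK1.1- cells, with 58 of 77 higher, and 0.08 higher in the Ezh2-KO pair, with 65 of 77 higher.

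**Figure D1:**
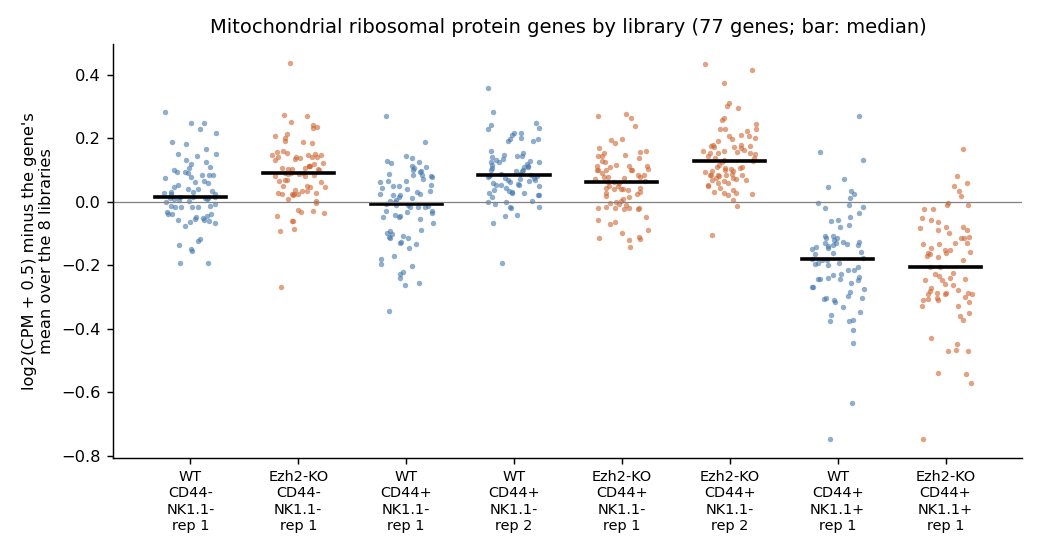
Each point is 1 of the 77 tested members in 1 library, as log2(CPM + 0.5) minus the mean of that gene over the 8 libraries; the black bar is the median and the colour the genotype. The medians of the 2 CD44+ NK1.1+ libraries lie at -0.18 and -0.21, and those of the other 6 between -0.01 and 0.13.

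Members were lower in CD44+ NK1.1+ than in CD44+ NK1.1- cells. Of the 77 tested, 26 were lower in CD44+ NK1.1+ cells and 0 were higher (edgeR quasi-likelihood test, averaged over genotypes, adjusted p under 0.05), which is 33.8% of them. Of all genes tested 16.1% were called lower and 16.4% higher, 32.5% in either direction. Scaled by library size alone, 3294 genes were lower and 1533 higher in place of 2217 and 2262, and 44 members were lower. The median member changed by -0.27 on the log2 scale (range -0.78 to 0.21), and 71 of 77 were below 0, against 49.8% of all genes, whose median was 0.00. With 1 CD44+ NK1.1- library left out, the spread comes from 1 replicate pair, and the calls over all genes moved as well. Without WT replicate 1, 58 members were lower and 1 was higher, where 62.6% of all genes were called, 32.5% higher. Without WT replicate 2 the counts were 50 and 1, where 27.9% were lower and 29.3% higher. Without Ezh2-KO replicate 1 or 2, 4 and 3 members were lower and 0 higher, where 5.87% and 5.71% of all genes were lower, so that the members' share was then no larger than the background. In the Ezh2-KO libraries alone and the WT libraries alone the median changes were -0.31 and -0.22, with 74 and 70 members below 0. The 26 calls were all kept in the first fit and all lost in the second, where far fewer of all genes were called. In bulk RNA of sorted cells, fewer cells of one type and less mRNA per cell cannot be told apart.

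The member with the largest change was Mrpl52, which encodes a large-subunit protein with no bacterial counterpart (chromosome 14, 54426909 to 54429750 on mm10). It was at 63.9 and 60.8 CPM in WT CD44+ NK1.1- cells and at 74.1 and 79.2 in the Ezh2-KO ones. WT and Ezh2-KO levels were 71.0 and 73.6 CPM in CD44- NK1.1- cells, and 44.7 and 36.2 in CD44+ NK1.1+ cells. Both CD44+ NK1.1+ libraries were thus below every other library. The change from CD44+ NK1.1- cells was -0.78 ± 0.09 (log2, SE), a 1.72-fold lower level (edgeR adjusted p = 0.0024). Per kilobase, its mean level was 169 RPKM in CD44+ NK1.1- and 98.2 RPKM in CD44+ NK1.1+ cells.

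Mrpl54 (chromosome 10, 81264722 to 81266926), for another large-subunit protein without a bacterial counterpart, had 47.4 and 44.5 CPM in WT and 43.4 and 51.6 in Ezh2-KO CD44+ NK1.1- cells. It had 47.1 and 49.2 CPM in WT and Ezh2-KO CD44- NK1.1- cells, and 26.6 and 30.3 in CD44+ NK1.1+ cells. Its change of -0.72 ± 0.11 had an edgeR adjusted p of 0.0064. The changes of Mrpl52 and Mrpl54 were -0.76 and -0.70 without WT CD44+ NK1.1- replicate 1. Mrpl54 is transcribed away from Apba3, whose annotated start lies 26 bases from its own, and Apba3 changed by -0.08 (adjusted p = 0.63).

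Among small-subunit genes the largest change was that of Mrps6 (chromosome 16, 92058336 to 92112227), whose protein has a bacterial counterpart. Its levels were 27.3 and 30.3 CPM in WT and 35.0 and 40.0 in Ezh2-KO CD44+ NK1.1- cells, 33.7 and 40.2 in WT and Ezh2-KO CD44- NK1.1- cells, and 17.4 and 21.2 in CD44+ NK1.1+ cells. The 2 CD44+ NK1.1+ libraries were the lowest 2 of the 8, with a change of -0.77 ± 0.12 (edgeR adjusted p = 0.0056), or -0.81 without WT CD44+ NK1.1- replicate 1. Exons of Mrps6 overlap those of Slc5a3 on the same strand, so its count is uncertain; Slc5a3, at a mean of 9.23 CPM, changed by -0.54 (adjusted p = 0.028).

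Mrps18b (chromosome 17, 35910380 to 35916440) was at 10.95 and 14.9 CPM in WT and 12.6 and 12.2 in Ezh2-KO CD44+ NK1.1- cells, and at 8.78 and 7.74 in CD44+ NK1.1+ cells. It is 1 of 3 related genes with an S18 name, and its 2 WT replicates lay further apart than those of the genes above. Its change was -0.62 ± 0.17 (edgeR adjusted p = 0.034), or -0.72 without WT CD44+ NK1.1- replicate 1. Of the related genes, Mrps18c changed by -0.42 ± 0.11 (adjusted p = 0.027), and Mrps18a, whose product is in the large subunit, by -0.19 without being called. The difference between these 3 changes was not tested.

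Mrpl12 (chromosome 11, 120484637 to 120488754), which encodes the stalk protein of the large subunit that is also reported to bind the mitochondrial RNA polymerase, was at 54.1 and 58.2 CPM in WT and 59.2 and 65.9 in Ezh2-KO CD44+ NK1.1- cells. It was at 43.0 in WT and 36.7 in Ezh2-KO CD44+ NK1.1+ cells, and it fell there, with a change of -0.58 ± 0.10 (edgeR adjusted p = 0.0081), or -0.60 without WT CD44+ NK1.1- replicate 1. Mrps10 changed by -0.61, Mrps28 by -0.61 and Mrps5 by -0.54, with adjusted p-values of 0.012, 0.021 and 0.011. The smallest change among those called was that of Mrpl20, -0.29 ± 0.09 (adjusted p = 0.046). Just outside the threshold were Mrpl57, with -0.28 ± 0.09 (adjusted p = 0.0504), and Mrpl28, with -0.35 ± 0.11 (0.053).

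**Figure D2:**
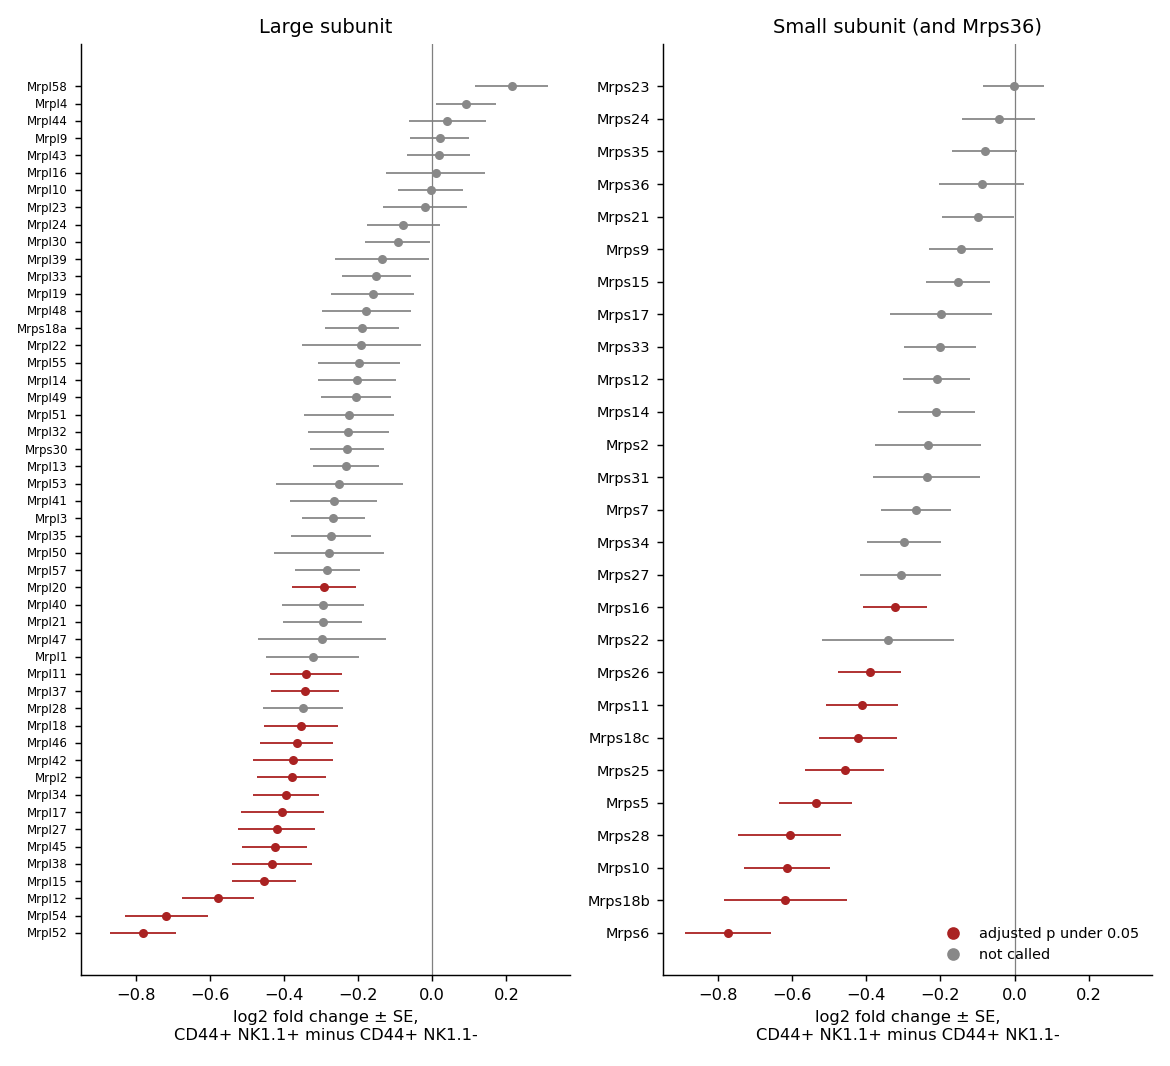
Log2 fold changes of the 77 tested members between CD44+ NK1.1+ and CD44+ NK1.1- cells, with standard errors, ranked within the large subunit (left) and the small subunit with Mrps36 (right); red marks members with an adjusted p under 0.05. All red points lie below 0, from -0.78 for Mrpl52 to -0.29 for Mrpl20.

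Of the 50 tested large-subunit genes 16 were lower, with a median change of -0.27, and of the 26 small-subunit genes 10 were lower, with a median of -0.28 and every one below 0. Genes whose proteins have a bacterial counterpart gave 16 of 45 lower (median -0.27), and those without one 10 of 31 (median -0.28). Of all genes tested 16.1% were called lower in this comparison. In the same order, the medians of these classes without WT CD44+ NK1.1- replicate 1 were -0.30, -0.32, -0.30 and -0.31. Mrps36, whose product is not in the ribosome, changed by -0.09 and was not called. Across the 77 genes, which share the libraries and are not independent replicates, Spearman's rho between mean RPKM and the change was 0.165.

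Both CD44+ NK1.1+ libraries lay below all 4 CD44+ NK1.1- libraries for 50 of the 77 members, against 23.7% of all genes tested, and above them for 1, Mrpl58, against 24.4%. Against all 6 other libraries 49 members lay below and 1 above, with background shares of 21.1% and 21.7%. When WT CD44+ NK1.1- replicate 1 was left out, 60 members lay below the remaining CD44+ NK1.1- libraries and 2 above, where 29.5% and 31.9% of all genes did so.

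Mrpl58 (chromosome 11, 115403724 to 115412674) had the opposite order of levels. It encodes a peptidyl-tRNA hydrolase (also called ICT1) that is built into the large subunit and releases stalled peptides. It was lowest in CD44- NK1.1- cells, at 28.9 CPM in WT and 27.4 in Ezh2-KO. In CD44+ NK1.1- cells it was at 33.1 and 34.3 in WT and 31.1 and 34.5 in Ezh2-KO, and in CD44+ NK1.1+ cells at 40.0 and 37.2. The 3 subsets did not overlap for Mrpl58, while Mrpl3 and Mrps28 had the reverse order without overlap. How often such orders occur among all genes was not counted. Against CD44- NK1.1- cells the rise of Mrpl58 was 0.46 ± 0.11 (edgeR adjusted p = 0.027). That call was absent with library-size scaling (0.31, adjusted p = 0.082), and over the 14 alternatives it was kept in 9, with a highest adjusted p of 0.34. Against CD44+ NK1.1- cells its difference was 0.21 ± 0.10 (edgeR adjusted p = 0.14). Exons of Mrpl58 overlap those of Ict1os on the other strand, a gene with no entry under that name in the counts table. Whether reads of Ict1os were counted for Mrpl58 was not tested.

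**Figure D3:**
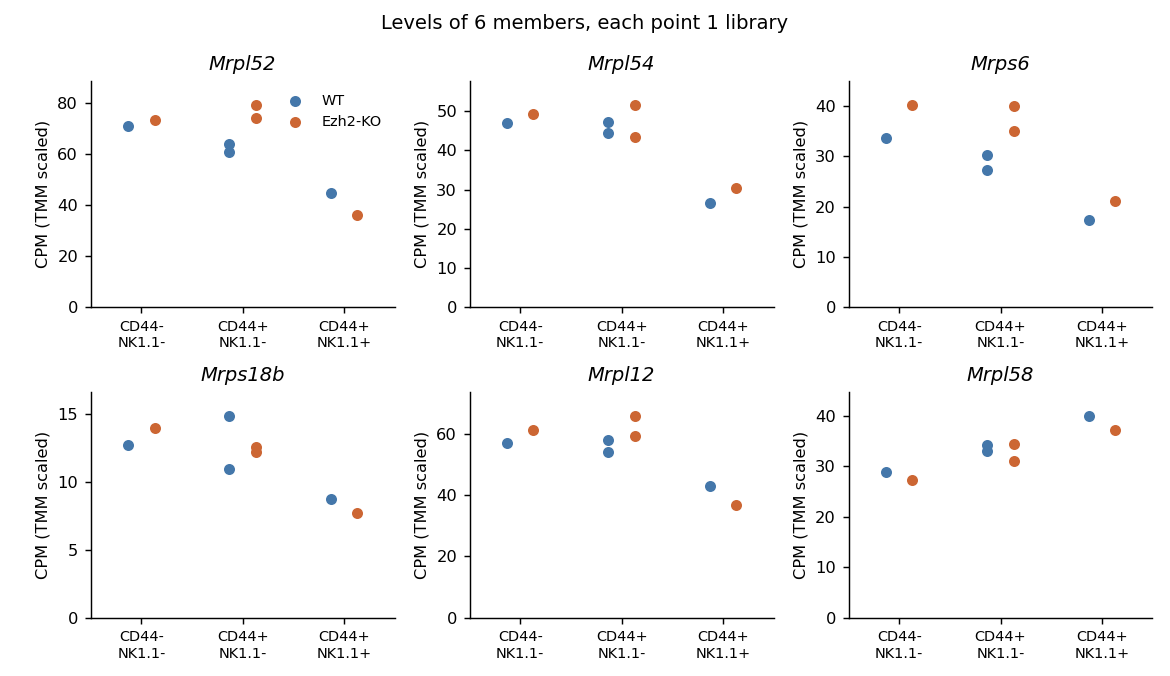
CPM of Mrpl52, Mrpl54, Mrps6, Mrps18b, Mrpl12 and Mrpl58 in each of the 8 libraries, by subset and genotype, with the axes starting at 0. The first 5 genes are lowest in both CD44+ NK1.1+ libraries, and Mrpl58 is highest there, at 40.0 and 37.2 CPM.

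Against CD44- NK1.1- cells, the earliest subset, CD44+ NK1.1+ cells had 16 members lower and 1 higher, where 16.2% of all genes were called lower and 16.0% higher, 32.2% in either direction. The lower share of members was 20.8%, near that background, while the median member changed by -0.23 with 68 of 77 below 0. With library-size scaling 35 members were lower, and 3328 genes were lower and 1651 higher in place of 2232 and 2206. Without WT CD44+ NK1.1- replicate 1 or 2, 53 members were lower and 2 higher in both fits, where 31.8% and 31.7% of all genes were lower, and without Ezh2-KO replicate 1 or 2, 3 were lower and 0 higher in both, where 7.41% and 7.48% were lower. Without WT replicate 2 the median against CD44+ NK1.1- cells, -0.22, was smaller in size than this one. The largest changes were again those of Mrps6 (-0.94 ± 0.13, edgeR adjusted p = 0.0038), Mrpl52 (-0.85 ± 0.10, adjusted p = 0.0023) and Mrpl54 (-0.76 ± 0.13, adjusted p = 0.0072). Both comparisons use the same 2 CD44+ NK1.1+ libraries, and 15 members were called lower in both, 11 in the comparison with CD44+ NK1.1- cells alone and 1, Mrpl3, in that with CD44- NK1.1- cells alone. Mrpl3 was at 90.6 and 91.0 CPM in WT and Ezh2-KO CD44- NK1.1- cells, at 72.4 to 80.8 in the 4 CD44+ NK1.1- libraries and at 64.1 and 65.4 in CD44+ NK1.1+ cells (change against CD44- NK1.1- cells -0.49 ± 0.10, adjusted p = 0.013).

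Mrpl52, Mrpl54 and Mrps6 were the 3 members still called lower in both comparisons under each alternative except the fit on WT libraries alone. There their changes from CD44+ NK1.1- cells were -0.48, -0.79 and -0.72, with adjusted p-values of 0.27, 0.13 and 0.18.

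Between CD44- NK1.1- and CD44+ NK1.1- cells no member passed the test. That is 0 of 77, where 1.59% of all genes were called higher and 1.07% lower (2.66% in either direction); 2 members had an unadjusted p under 0.05, and the smallest edgeR adjusted p was 0.28. The median change was 0.01, from -0.22 ± 0.08 for Mrpl3 to 0.24 ± 0.10 for Mrpl58. With the DESeq2 Wald test 0 members were called as well. Without WT CD44+ NK1.1- replicate 1 or 2 the count was 5 and 11, or 6.49% and 14.3% of members, where 25.2% and 31.9% of all genes were called, and the median was 0.04 and -0.02. The 2 CD44- NK1.1- libraries lay below the 4 CD44+ NK1.1- libraries for 8 members, where 11.4% of all genes did so, and above them for 3, where 10.0% did.

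Between the genotypes 1 member passed the test. Over all subsets together, 1 of the 77 was higher in Ezh2-KO cells and 0 were lower, where 6.43% of all genes were called higher and 4.89% lower (11.3% in either direction). That gene was Mrps6, at 0.33 ± 0.08 on the log2 scale, a 1.25-fold higher level (edgeR adjusted p = 0.035). Its Ezh2-KO value was above the WT value in each subset, by the CPM given above. The call was kept in 8 of 16 alternatives and lost when any 1 library other than WT CD44+ NK1.1- replicate 1 was left out, and with the mean of the 3 subset effects, with a change of 0.27 to 0.37 and a highest adjusted p of 0.14. The next largest difference was that of Mrpl48 (0.28 ± 0.09, adjusted p = 0.084), and the lowest was that of Mrpl4 (-0.15 ± 0.05, adjusted p = 0.11). The median member differed by 0.04. When WT CD44+ NK1.1- replicate 1 was left out, 2 members (2.60%) were called, Mrps6 (0.28) and Mrpl48 (0.31), where 20.4% of all genes were, and without any 1 of the other 7 libraries 0 were.

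Within CD44+ NK1.1- cells, the subset with replicates, 0 members were called where 3.78% of all genes were called higher and 1.16% lower (4.94% in either direction). There 2 members had an unadjusted p under 0.05, the DESeq2 Wald test called 0, and the smallest edgeR adjusted p was 0.16. The largest differences were those of Mrps6 (0.38 ± 0.13), Mrpl52 (0.30 ± 0.10) and Mrpl48 (0.29 ± 0.14), and the median was 0.06, with 54 of 77 above 0. That median is smaller than the SD of 0.07 between the replicates' own member medians. The 2 Ezh2-KO libraries lay above the 2 WT libraries for 21 members and below for 5, where 26.5% and 25.8% of all genes did so. Without WT replicate 1 these were 26 and 22, where 39.8% and 42.1% did so. Without WT replicate 2, 22 members (28.6%) were called, 21 of them higher, where 42.0% of all genes were called, 21.0% higher. Without WT replicate 1 the count was 5 (6.49%), where 27.3% of all genes were called, and without either Ezh2-KO replicate it was 0.

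In the subsets with 1 library per genotype the spread was taken from the CD44+ NK1.1- replicates. In CD44- NK1.1- cells 0 members were called (background 0.181% higher and 0.058% lower, 0.239% in either direction), with a median difference of 0.06. In CD44+ NK1.1+ cells 0 were called (background 0.79% higher and 0.159% lower, 0.95% in either direction), with a median of -0.04. No member had an unadjusted p under 0.05 in either, and the DESeq2 Wald test called 0. Without WT CD44+ NK1.1- replicate 1 or 2 the count was 2 and 2 in CD44- NK1.1- cells, where 18.1% and 18.0% of all genes were called, and 2 and 3 in CD44+ NK1.1+ cells, where 17.7% and 17.7% were.

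Whether the effect of Ezh2 loss differed between subsets was tested directly, and 0 members were called in each of the 3 differences, where 0.0217%, 0.0% and 0.0% of all genes were called higher and 0.0% lower in each. The DESeq2 Wald test called 0 members in each as well. The 1 member with an unadjusted p under 0.05 was Mrpl52, whose change from CD44+ NK1.1- to CD44+ NK1.1+ cells was 0.60 lower in Ezh2-KO than in WT cells (log2 difference -0.60 ± 0.17, edgeR adjusted p = 1.0). Its CPM fell from 62.3 ± 2.23 (SD, n = 2) to 44.7 in WT and from 76.7 ± 3.65 (SD, n = 2) to 36.2 in Ezh2-KO cells. The median of this difference over the members was -0.09, and 58 of 77 were below 0. Without WT CD44+ NK1.1- replicate 2 this difference was called for 10 members, all below 0, where 8.69% of all genes were called below 0 and 10.4% above. Without replicate 1 it was called for Mrpl52 alone (-0.64), where 2.35% of all genes were called below 0.

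**Figure D4:**
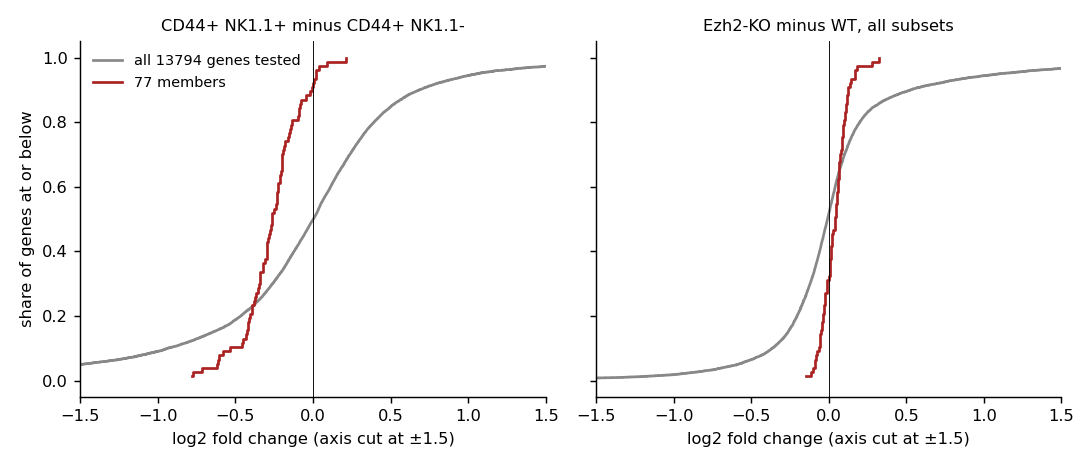
Share of genes at or below each log2 fold change for the 77 members (red) and all 13794 genes tested (grey), between CD44+ NK1.1+ and CD44+ NK1.1- cells (left) and between Ezh2-KO and WT cells over all subsets (right); the axis is cut at 1.5 in each direction. On the left the member curve is shifted to the left of 0, with a median of -0.27, and on the right its median is 0.04.

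Other genes of mitochondrial gene expression were listed by role, to set the members beside them in the step to CD44+ NK1.1+ cells. Of the 5 ribosomal subunits that carry no Mrp symbol, 2 were lower. Dap3, a GTP-binding protein of the small subunit known also for a role in cell death, was at 93.7 and 97.1 CPM in WT and 118 and 121 in Ezh2-KO CD44+ NK1.1- cells, and at 53.8 and 64.8 in CD44+ NK1.1+ cells. Its change, -0.86 ± 0.08 (edgeR adjusted p = 0.0014), was larger in size than that of any member. Ptcd3, a small-subunit protein with RNA-binding repeats, changed by -0.38 (adjusted p = 0.043), while Gadd45gip1 (-0.21), Chchd1 (-0.26) and Aurkaip1 (-0.07) were not called. Dap3 was also higher in Ezh2-KO cells over all subsets, by 0.31 ± 0.05 (adjusted p = 0.0084).

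Of 30 genes for assembly of the mitochondrial ribosome and modification of its RNA, 3 were lower and 0 higher, with a median of -0.12: Rcc1l (-0.50, adjusted p = 0.017), Tbrg4 (-0.41, 0.021) and Noa1 (-0.32, 0.046). Of 18 translation factors 1 was lower, the elongation factor Gfm1 (-0.39, adjusted p = 0.031), and the median was -0.06. Tufm, which delivers aminoacyl-tRNAs to the ribosome, was not called, at 0.10. Of 20 mitochondrial aminoacyl-tRNA synthetases, which charge the tRNAs, 5 were lower and 0 higher, with a median of -0.18; Tars2 (-0.41, adjusted p = 0.019) and Sars2 (-0.46, 0.020) are examples. Of 19 genes for transcription and replication of mitochondrial DNA 1 was lower, the RNA-degrading Pnpt1 (-0.41, adjusted p = 0.025), with a median of -0.14; the polymerase Polrmt (-0.14) and the packaging factor Tfam (-0.03) were not called. The share lower was therefore below that of the members in each of these 4 lists, a difference that was not tested. Of all genes tested 16.1% were lower, which is above the share in each of these lists except the synthetases.

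Regulators of nuclear genes for mitochondrial proteins were split. Of 16 tested, Esrra, an orphan nuclear receptor, was higher (0.46 ± 0.12, edgeR adjusted p = 0.032) and Atf5, a factor of the mitochondrial stress response, lower (-0.53 ± 0.14, adjusted p = 0.030). The factors whose sites were searched above were not called: Gabpa differed by 0.11, Nrf1 by -0.06, Yy1 by -0.07 and Myc by 0.07, and the coactivator Ppargc1b by 0.04. Myc was at 82.7 and 153 CPM in the 2 WT CD44+ NK1.1- libraries at 187 and 177 in the Ezh2-KO ones and at 138 and 171 in the CD44+ NK1.1+ libraries, so the subsets overlapped.

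In the step from CD44+ NK1.1- to CD44+ NK1.1+ cells, genes of mitochondrial mass, cell division and cytosolic ribosome production also had medians below 0. Their part in the result was not tested. Of 15 genes used as markers of mitochondrial mass, such as the outer membrane channel Vdac1 (-0.60, edgeR adjusted p = 0.0050) and the import receptor Tomm20 (-0.48, 0.013), 9 were lower and 0 higher, with a median of -0.38. They summed to 2430 to 2672 CPM in the 6 libraries of the NK1.1- subsets and to 2079 and 1996 in the CD44+ NK1.1+ ones. Of 23 genes of proliferation 22 were lower, with a median of -1.09, and Ccnb2, a mitotic cyclin, changed by -1.23 (adjusted p = 0.0011). Their sums were 4333 to 6282 CPM against 3150 and 2717. Of 18 genes of cytosolic ribosome biogenesis 9 were lower, with a median of -0.33, among them Npm1 (-0.52, edgeR adjusted p = 0.0055). Their sums were 4061 to 4985 CPM against 3523 and 3364. In the earlier step, from CD44- NK1.1- to CD44+ NK1.1- cells, the median of the proliferation list was 0.40. The medians there were -0.14 for cytosolic ribosome biogenesis, -0.05 for mitochondrial mass and 0.01 for the members.

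**Figure D5:**
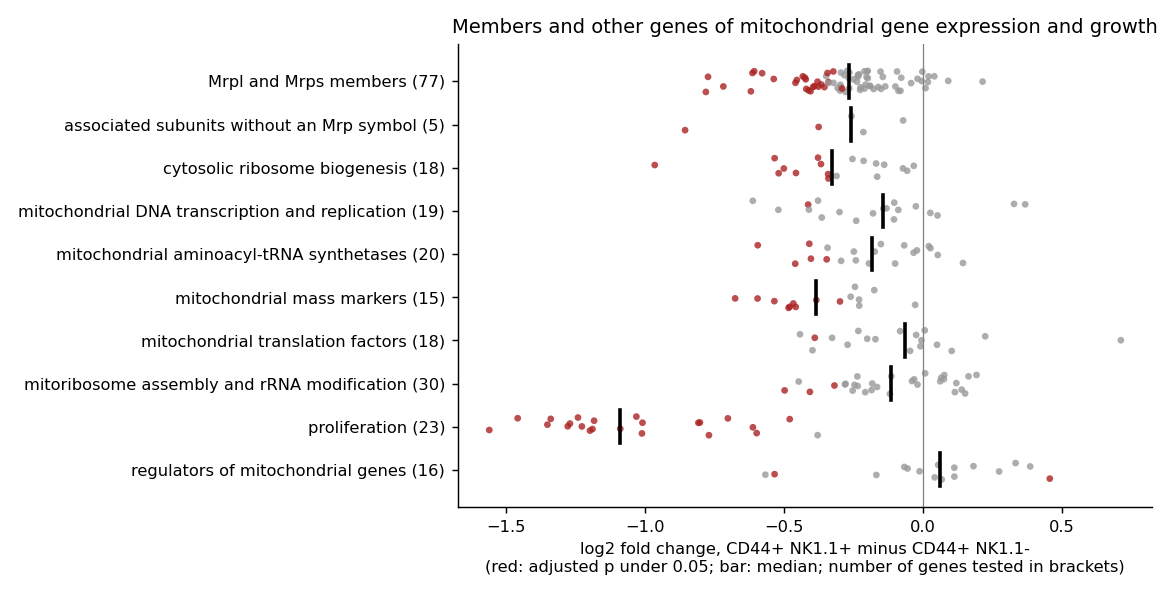
Log2 fold changes between CD44+ NK1.1+ and CD44+ NK1.1- cells for the members and for other lists of genes, each point 1 gene, red where the adjusted p is under 0.05, with the median as a bar and the number of genes tested in brackets. The members' median is -0.27, that of the proliferation list -1.09 and that of the regulators 0.06.

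The members' positions were compared with those of other genes on GENCODE vM21. They lie on 17 chromosomes, with 11 of them on chromosome 11. A protein-coding neighbour transcribed from the other strand, starting within 1000 bases, was found for 18 of 78 members (23.1%) and for 10.3% of the 12057 tested protein-coding genes. The 17 neighbours that were tested had a median change of -0.08 between CD44+ NK1.1+ and CD44+ NK1.1- cells. Of these 4 were called lower and 1 higher, where 16.1% of all genes tested were called lower and 16.4% higher. Ncapd2, a condensin subunit, starts 100 bases from Mrpl51 and changed by -0.83 (edgeR adjusted p = 0.0064) where Mrpl51 changed by -0.23. Ska3, of the kinetochore, starts 49 bases from Mrpl57 and changed by -1.20 (adjusted p = 0.0059) where Mrpl57 changed by -0.28. Helq, a DNA helicase, starts 29 bases from Mrps18c, and the changes were -0.59 (adjusted p = 0.018) and -0.42. Psma2, a proteasome subunit, starts 75 bases from Mrpl32, with changes of -0.28 and -0.23 that were not called. Klc4, a kinesin light chain, starts 207 bases from Mrpl2 and was higher by 0.37 (adjusted p = 0.048) where Mrpl2 was lower by a change of -0.38. Ppp1r10 starts 45 bases from Mrps18b and was not called, at 0.18. Of the 17 tested neighbours 11 were below 0, where 49.8% of all genes tested were. No difference within a pair was tested.

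Exons of 31 of the 78 members overlap those of another gene (39.7%, against 33.6% of tested genes), and where strand was not used in counting, reads there cannot be told apart. Of the 26 members lower in CD44+ NK1.1+ cells, 17 had no such overlap and 9 did. Mrpl46 and Mrps11 are members that overlap each other, and both were lower (-0.37 and -0.41). Mrps25 (-0.46) overlaps Nr2c2, which changed the other way (0.49, edgeR adjusted p = 0.011), and Mrpl27 (-0.42) overlaps Eme1 (-1.07, adjusted p = 0.011). Exons of Mrpl3, Mrpl12, Mrps18b and Mrpl58 overlap genes on the other strand that have no entry under their names in the counts table.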

How the data were processed

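RNA of 8 libraries of thymic NKT cells was sequenced, each over 4 lanes per the series' design text. Per the submitters' processing notes, the authors used CASAVA, Subread 1.4.3-p1 and featureCounts on mm10; the deposited values are raw counts of reads per Entrez gene. Neither the gene annotation nor the use of strand is stated in the labels. Entrez identifiers were matched to RefSeq symbols (25275 of 27179 matched). Libraries were grouped by genotype and surface markers in the sample labels. edgeR 4.0.16 in R 4.3.3 (TMM scaling, filterByExpr over 6 groups, robust quasi-likelihood fit) tested 13794 genes with 1 mean per group (2 residual degrees of freedom), and the effect of Ezh2 over all subsets with added effects (4 degrees of freedom). Benjamini-Hochberg adjustment ran over all genes tested, and 0.05 was the threshold. CPM values are TMM scaled, and RPKM divides them by the counted length. The lone library of a group is assumed to vary like the replicated groups, so p-values there rest on the spread of 2 replicate pairs. Alternatives used DESeq2 1.42.0, limma 3.58.1 (voom), other scalings and filters, and each library left out. Members and gene lists were chosen with earlier results of these data known. Named were members called in a comparison, the 4 largest rises and falls, the 5 highest and 5 lowest by RPKM, members on which a sequence or position result turns, up to 4 genes per other list, and fixed regulators and subunits. Neighbouring genes, overlap partners, Mrps18a, Mrpl28 and the B cell genes were named after their values were seen.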

Additional observations from a re-analysis of the deposited data

How the results depend on the processing

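No member called in the report changed sign under an alternative run for its comparison. Without WT CD44+ NK1.1- replicate 2 the members' median between CD44+ NK1.1- and CD44- NK1.1- cells turned from 0.01 to -0.02, and without replicate 1 the genes called for Ezh2 loss over all subsets turned from 887 higher and 674 lower to 1273 and 1521. With library-size scaling the median of all genes moved to -0.13 against CD44+ NK1.1- cells and -0.16 against CD44- NK1.1- cells, the split of calls in the first from 2262 higher and 2217 lower to 1533 and 3294, and the members called in CD44+ NK1.1+ cells rose from 26 to 44 and from 17 to 35. Relative to all genes the members' median stayed at -0.27 and -0.22, and members above 0 against CD44+ NK1.1- cells went from 6 to 1. The DESeq2 Wald test gave 14 and 9 members, the Ezh2-KO libraries alone 55 and 45, the WT libraries alone 0 and 0. With the DESeq2 Wald test 11.4% and 10.9% of all genes were lower, so the 9 of 77 members were close to that background. With the Ezh2-KO libraries alone 29.1% and 27.9% of all genes were lower, and with the WT libraries alone 0.891% and 2.52%. Leaving out 1 CD44+ NK1.1- library gave 3 to 59 members against CD44+ NK1.1- and 3 to 55 against CD44- NK1.1- cells; all genes called ranged from 1519 to 8586 in the first, against 4479 with all libraries, 214 with WT alone and 7717 with Ezh2-KO alone. For Ezh2 loss in CD44+ NK1.1- cells they ranged from 101 to 5792, against 682. For Ezh2 loss, leaving out 1 library gave 0 to 22 members in CD44+ NK1.1- cells, 0 to 2 over all subsets, 0 to 3 in CD44+ NK1.1+ and 0 to 2 in CD44- NK1.1- cells. The mean of the 3 subset effects called 0 in place of 1. For CD44+ NK1.1- against CD44- NK1.1- cells leaving out 1 library gave 0 to 11 members, and the Ezh2-KO libraries alone 1. For the differences of the Ezh2 effect, leaving out 1 library gave 0 to 2 members between CD44+ NK1.1- and CD44- NK1.1- cells and 0 to 10 between CD44+ NK1.1+ and CD44+ NK1.1- cells. For these differences the share of members called was no larger than that of all genes in any fit without 1 library. The same held for CD44+ NK1.1- against CD44- NK1.1- cells. The Ezh2-KO libraries alone called 8.34% of all genes higher and 6.31% lower there, and 1 member higher. The ratio of the members' share of counts, CD44+ NK1.1+ over NK1.1- libraries, was 0.770 unscaled and 0.848 with TMM. No paired analysis was possible because the labels give no replicate numbers. For Ezh2 loss over all subsets, library-size scaling moved the split of all genes from 887 higher and 674 lower to 1044 and 490. Every call rests on the spread of 2 replicate pairs.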

Other observations

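The mitochondrial leucyl-tRNA synthetase Lars2 stood out from its list. It was at 729 and 876 CPM in WT and 3287 and 2341 in Ezh2-KO CD44+ NK1.1- cells, at 532 and 1345 in WT and Ezh2-KO CD44- NK1.1- cells, and at 773 and 1941 in CD44+ NK1.1+ cells. Every Ezh2-KO library lay above every WT library, with a log2 difference over all subsets of 1.57 ± 0.14 (edgeR adjusted p = 0.0015). It was the 1 synthetase of 20 called in that comparison. The next highest of the list, Iars2, was at 87.3 to 113 CPM. Whether all reads counted for Lars2 come from Lars2 mRNA was not tested.

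The mitochondrial ribosomal RNAs, to which the members' proteins bind, were measured at 495 and 216 CPM (mt-Rnr1) and 1040 and 388 CPM (mt-Rnr2) in the WT CD44+ NK1.1- libraries. In the Ezh2-KO ones mt-Rnr1 was at 151 and 157 CPM and mt-Rnr2 at 255 and 220. In CD44+ NK1.1+ cells mt-Rnr1 was at 251 in WT and 286 in Ezh2-KO, and mt-Rnr2 at 482 and 511. In CD44- NK1.1- cells mt-Rnr1 was at 205 and 137 CPM and mt-Rnr2 at 448 and 233. The highest values of both were in WT CD44+ NK1.1- replicate 1, the library with the high immediate early genes.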
